A study of Mus musculus with 12 samples.

Results

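Glutathione and thioredoxin are the main thiol systems with which mammalian cells remove peroxides and reactive compounds, and 10 genes of these systems were followed across 3 mouse leukaemia lines. The genes were Gclc and Gclm for glutathione synthesis, Gstm1, Gsta4, Gstp1 and Gsto1 for its transfer, Txnrd1, Srxn1 and Prdx1 for the thioredoxin and peroxiredoxin branch, and Hmox1 for haem breakdown. They were chosen by name out of 17097 genes with a probe set of their own on the array, and all 18 probe sets annotated to 1 of them alone were used. No member lacked such a probe set, and 16 of the 18, covering all 10 genes, passed the filter on low values.

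The arrays carried labelled RNA from acute myeloid leukaemia cells of mouse, cultured with interleukin-3 and serum and given no treatment. The TB14 line and the TB13 line were both labelled as expressing Trib1 and Bcl11a, and the Trib1 line as expressing Trib1 alone, with 4 arrays each. Trib1, shared by all 3 lines, is a pseudokinase known to lead to degradation of C/EBPalpha, and Bcl11a is a zinc finger repressor whose effect on the transcription factor PU.1 is the subject of the series. The labels do not say what sets TB13 apart from TB14, whether a line is 1 clone, or whether its 4 arrays stand for separate cultures. What the p-values measure is thus array-to-array spread, possibly technical, and never the spread between lines. In such bulk RNA, fewer cells of a type and less RNA per cell cannot be told apart.

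Values are deposited intensities on a linear scale. Log2 changes were computed on log2(intensity + 12.7), a scale that understates the change of dim probe sets, and a probe set passed when its limma p, adjusted over all 17475 probe sets tested, was under 0.05. The TB13 arrays stood apart in scale. Their trimmed means were 81.3 to 83.3, against 115.5 to 117.8 on the other 8 arrays, and the 18 hybridization controls, spiked in at set amounts, had a median log2 difference of -1.11 between TB13 and Trib1 and 0.0012 between TB14 and Trib1. The median log2 change of all probe sets tested was 0.0084 in TB14 against Trib1 and -0.39 in TB13 against Trib1, and the TB13 value was -0.030 with quantile scaling of the arrays, -0.62 with scaling to a common median and 0.55 when arrays were calibrated on those controls. For this reason each TB13 change below is given on deposited and on quantile-scaled values, and a direction is called stable only where these 4 scalings share it. The probe sets of the introduced genes, 4 for Bcl11a and 2 for Trib1, were dim in all lines and did not check the labels. All 11 myeloid marker genes were above the array medians on all 12 arrays, with Kit, Mpo and Spi1 among them.

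Glutathione is made in a pair of steps, of which glutamate-cysteine ligase catalyses the first and rate-limiting one, and glutathione transferases then join it to reactive compounds. Thioredoxin reductase keeps thioredoxin reduced, peroxiredoxins use that thiol to remove hydrogen peroxide, and sulfiredoxin repairs peroxiredoxins that were overoxidized. Many of these genes are known targets of NRF2, which binds antioxidant response elements with small MAF proteins, where BACH1 acts as its competitor. In myeloid cells this defence is known to meet the oxidants the cells themselves produce.

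Promoters from RefSeq (GRCm38.p6, 250 bases before to 50 after each start) were matched for 7 of the 10 genes, as 10 promoters. The files name no build, so these coordinates describe the printed sequences alone. They are shown for the members whose window held the antioxidant response element core TGACNNNGC or the AP-1 site TGANTCA, each searched on both strands, because NRF2 target genes are the common theme of the members. The core was in 4 of the 10 member promoters and in 12.4% of all 32851 promoters, and the AP-1 site was in 3 of 10 and in 7.81%. The PU.1 core GAGGAAG was in 1 of 10, another promoter of Txnrd1, and in 13.6% of all. Capitals mark the matches to the first 2 of these motifs, and positions count bases from the start site.
Gclm, chr3:122245307-122245606, plus strand: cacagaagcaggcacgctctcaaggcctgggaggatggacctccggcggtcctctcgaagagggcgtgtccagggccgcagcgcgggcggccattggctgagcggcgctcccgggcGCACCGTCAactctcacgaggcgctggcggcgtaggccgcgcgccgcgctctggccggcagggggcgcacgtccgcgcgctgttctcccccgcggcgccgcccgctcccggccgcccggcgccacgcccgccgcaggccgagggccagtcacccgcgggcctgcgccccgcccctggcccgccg
Txnrd1, chr10:82858956-82859255, plus strand: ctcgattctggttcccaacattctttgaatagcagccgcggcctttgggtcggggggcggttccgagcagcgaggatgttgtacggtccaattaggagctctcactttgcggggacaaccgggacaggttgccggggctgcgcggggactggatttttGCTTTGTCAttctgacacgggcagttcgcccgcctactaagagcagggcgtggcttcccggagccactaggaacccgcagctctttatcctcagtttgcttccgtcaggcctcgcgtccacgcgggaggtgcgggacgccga
Srxn1, chr2:152105274-152105573, plus strand: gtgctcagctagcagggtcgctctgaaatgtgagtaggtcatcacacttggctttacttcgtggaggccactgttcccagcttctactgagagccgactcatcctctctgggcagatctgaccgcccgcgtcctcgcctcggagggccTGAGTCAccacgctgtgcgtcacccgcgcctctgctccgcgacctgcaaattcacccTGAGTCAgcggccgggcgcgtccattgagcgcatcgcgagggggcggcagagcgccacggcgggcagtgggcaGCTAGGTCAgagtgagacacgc
Prdx1, chr4:116685349-116685648, plus strand: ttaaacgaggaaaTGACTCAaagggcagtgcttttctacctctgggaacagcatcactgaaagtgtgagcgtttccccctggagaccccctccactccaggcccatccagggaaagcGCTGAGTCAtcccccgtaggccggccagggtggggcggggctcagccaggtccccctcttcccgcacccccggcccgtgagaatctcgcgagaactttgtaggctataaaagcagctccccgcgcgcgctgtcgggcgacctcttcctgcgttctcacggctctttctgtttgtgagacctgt
Gstp1, chr19:4037863-4038162, minus strand: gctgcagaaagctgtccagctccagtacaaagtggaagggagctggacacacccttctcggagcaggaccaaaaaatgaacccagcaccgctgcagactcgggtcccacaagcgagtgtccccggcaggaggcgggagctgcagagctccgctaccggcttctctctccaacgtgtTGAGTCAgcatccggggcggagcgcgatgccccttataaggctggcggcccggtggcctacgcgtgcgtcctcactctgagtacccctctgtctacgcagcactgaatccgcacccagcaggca
The core lies on the other strand in the first 4, starting at -134 in Gclm, -92 in Txnrd1, 28 in Srxn1 and -133 in Prdx1. The AP-1 sites start at -102 and -45 in Srxn1, at -237 and -131 in Prdx1 and at -74 in Gstp1, and the second of Prdx1 overlaps its core. A match is a description of letters and not a binding site, and the windows without one, such as those of Gstm1 and Gsto1, say nothing about these factors. The antioxidant response element was searched in the form TGACNNNGC alone, so Gstp1 is not shown to lack it.

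Relative to the Trib1 line, the TB14 line had more RNA of most members. Of the 16 tested probe sets 10 passed as higher, for 7 genes (Gstm1, Gsta4, Gstp1, Gclc, Gclm, Txnrd1 and Prdx1), and 5 as lower, for Gsto1 and Srxn1. Over all probe sets tested 29.6% passed as higher and 20.0% as lower. After quantile scaling 9 passed as higher and 2 as lower, with 25.1% and 19.0% over all. At 1.5-fold or more 4 were higher, for Gsta4, Gstm1 and Gclm, and 0 lower, against 3.47% and 3.80% over all, and the same counts of 4 and 0 stood after quantile scaling beside 2.90% and 3.72%. Without array 1 of TB14 the 5 lower calls were 2, and without array 3 of TB14 or array 1, 3 or 4 of Trib1 they were 3, each by loss of Srxn1 calls. The median change of the 16 was 0.14, and no member turned its direction in TB14 under any of the 4 scalings.

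**Figure D1:**
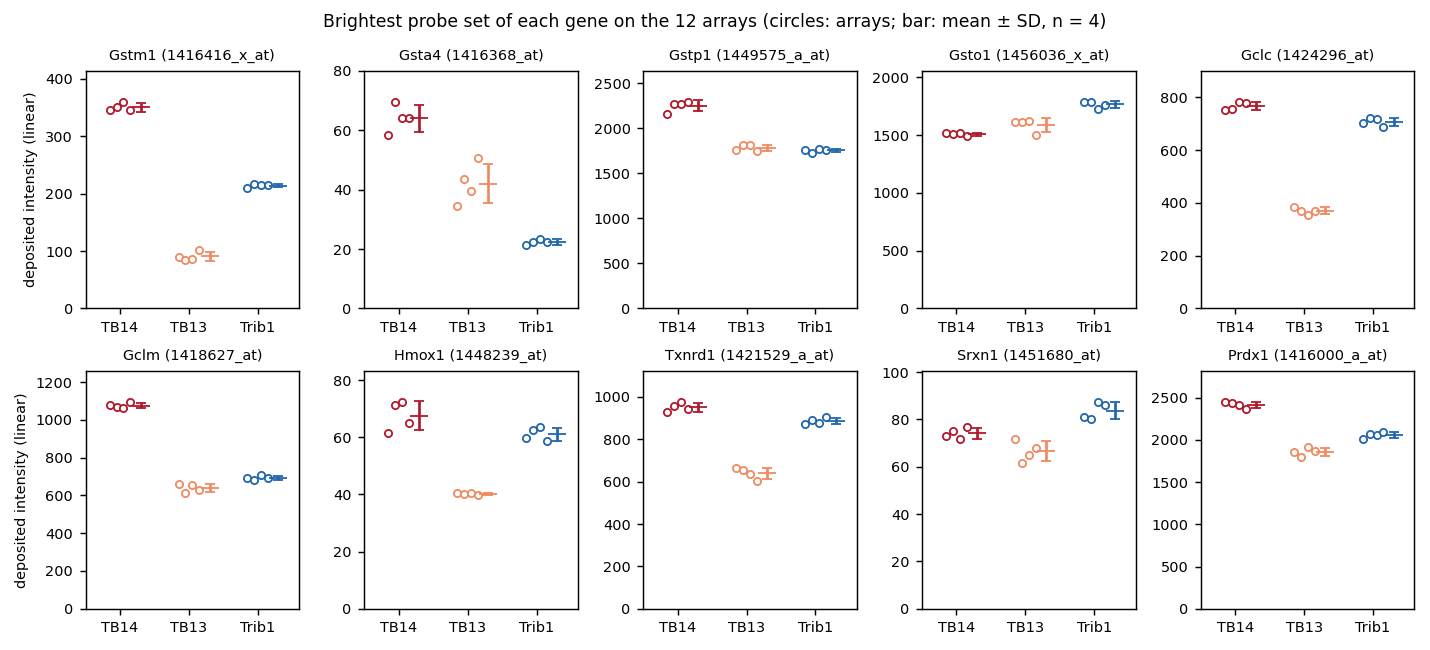
Deposited linear intensity of the brightest probe set of each of the 10 genes; each panel has the TB14, TB13 and Trib1 lines on the x axis, circles for the 4 arrays of a line and a bar for mean ± SD, with the y axis starting at 0. Gstm1, Gsta4 and Gclm stand highest in TB14, and Gclc, Hmox1 and Txnrd1 stand lowest in TB13 as deposited.

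The ligase subunits did not move alike. Gclm, the modifier subunit that raises the enzyme's affinity for glutamate, was read at 1077, 1067, 1066 and 1095 intensity units on the TB14 arrays, 659, 615, 655 and 631 on the TB13 arrays and 691, 683, 710.4 and 690.1 on the Trib1 arrays. The TB14 arrays lay above all others, and the TB13 arrays lay just below the Trib1 arrays without touching them. The Gclm change in TB14 against Trib1 was 0.62 ± 0.0268 (SE, limma adjusted p = 1.92e-13). In TB13 it was -0.11 ± 0.0268 (SE, limma adjusted p = 0.000557) as deposited and 0.43 ± 0.0222 (SE, limma adjusted p = 3.79e-11) after quantile scaling, so its direction in that line turned with the scaling. Quantile-scaled Gclm had 980.1, 974, 965 and 1005 on the TB14 arrays, 836, 801, 836 and 835 on the TB13 arrays and 612, 602, 625 and 609 on the Trib1 arrays, and these 3 sets did not overlap.

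Gclc, the catalytic subunit, was read at 754, 757, 784 and 781 intensity units on the TB14 arrays, 386, 370.2, 353 and 370.2 on the TB13 arrays and 702, 720.5, 718 and 690.0 on the Trib1 arrays. Its TB13 arrays were far below both other lines, and TB14 lay slightly above Trib1 with no overlap. The Gclc change was 0.12 ± 0.0306 (SE, limma adjusted p = 0.00321) in TB14. In TB13 Gclc fell by 0.91 as deposited (SE 0.0306, limma adjusted p = 1.17e-15) and by 0.25 after quantile scaling (SE 0.0269, limma adjusted p = 2.84e-07), and it was lower under all 4 scalings, at -0.13 under calibration on the controls. TB14 exceeded TB13 in both subunits under all 4 scalings. After quantile scaling that difference was 0.37 ± 0.0269 (SE, limma adjusted p = 2.39e-09) for Gclc and 0.24 ± 0.0222 (SE, limma adjusted p = 3.72e-08) for Gclm, and as deposited it was 1.03 for Gclc and 0.74 for Gclm.

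Gstm1, a cytosolic glutathione transferase of the mu class, gave opposite results in the lines with Bcl11a. Its brightest probe set, 1416416_PM_x_at, read 345, 350.0, 360.1 and 345 intensity units on the TB14 arrays, 89.4, 85.0, 87.0 and 102 on the TB13 arrays and 209.9, 216, 215 and 215 on the Trib1 arrays. The 3 lines formed 3 separate levels, with TB14 highest and TB13 lowest. A second Gstm1 probe set, 1448330_PM_at, averaged 337 ± 8.25 in TB14, 98.5 ± 10.3 in TB13 and 207 ± 9.94 in Trib1 (SD, n = 4 each) and its arrays did not overlap between lines either. In TB14 against Trib1 the Gstm1 changes were 0.68 ± 0.0483 (SE, limma adjusted p = 4.69e-10) and 0.67 ± 0.0572 (SE, limma adjusted p = 6.81e-09). In TB13 they were -1.13 and -0.99 as deposited (limma adjusted p = 3.13e-14 and 2.96e-12), and -0.49 and -0.32 after quantile scaling (limma adjusted p = 1.11e-06 and 0.000688). Calibrated on the controls, the Gstm1 values for TB13 were -0.012 and 0.12, so neither TB13 fall kept its size under every scaling and the second turned.

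TB14 exceeded TB13 by 1.81 ± 0.0483 (SE, limma adjusted p = 7.98e-17) and 1.66 ± 0.0572 (SE, limma adjusted p = 1.53e-15) on those Gstm1 probe sets as deposited, by 1.14 and 0.96 after quantile scaling, and by 0.74 and 0.59 under the calibration. The third Gstm1 probe set, 1425627_PM_x_at, did not follow them and read 119, 114, 118 and 114 intensity units on the TB14 arrays, 104, 94.7, 110.2 and 128 on the TB13 arrays and 95.1, 95.7, 104 and 102 on the Trib1 arrays. Its TB13 arrays overlapped both other lines as deposited, and after quantile scaling TB13 lay above both, with 151, 134, 161 and 198 against 87.8, 87.1, 93.8 and 92.2 on the Trib1 arrays. Over the 12 quantile-scaled arrays the first 2 Gstm1 probe sets correlated at 0.977 and 1425627_PM_x_at correlated with them at -0.60 and -0.50, values that share the arrays and are given as a description. An ending in x_at marks, in the maker's naming, probes that can also match other sequences and the mu class holds several near-identical genes. The ending is carried by 1416416_PM_x_at and 1425627_PM_x_at of Gstm1, 1456036_PM_x_at of Gsto1 and 1437014_PM_x_at of Prdx1, and what else their probes match was not tested. The last, 1425626_PM_at, stayed near the array medians of 20.8 to 25.9 at 21.1 ± 0.929 in TB14, 24.6 ± 2.30 in TB13 and 19.3 ± 0.714 in Trib1, did not pass the filter and gave 0.080 in TB14 without one.

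**Figure D2:**
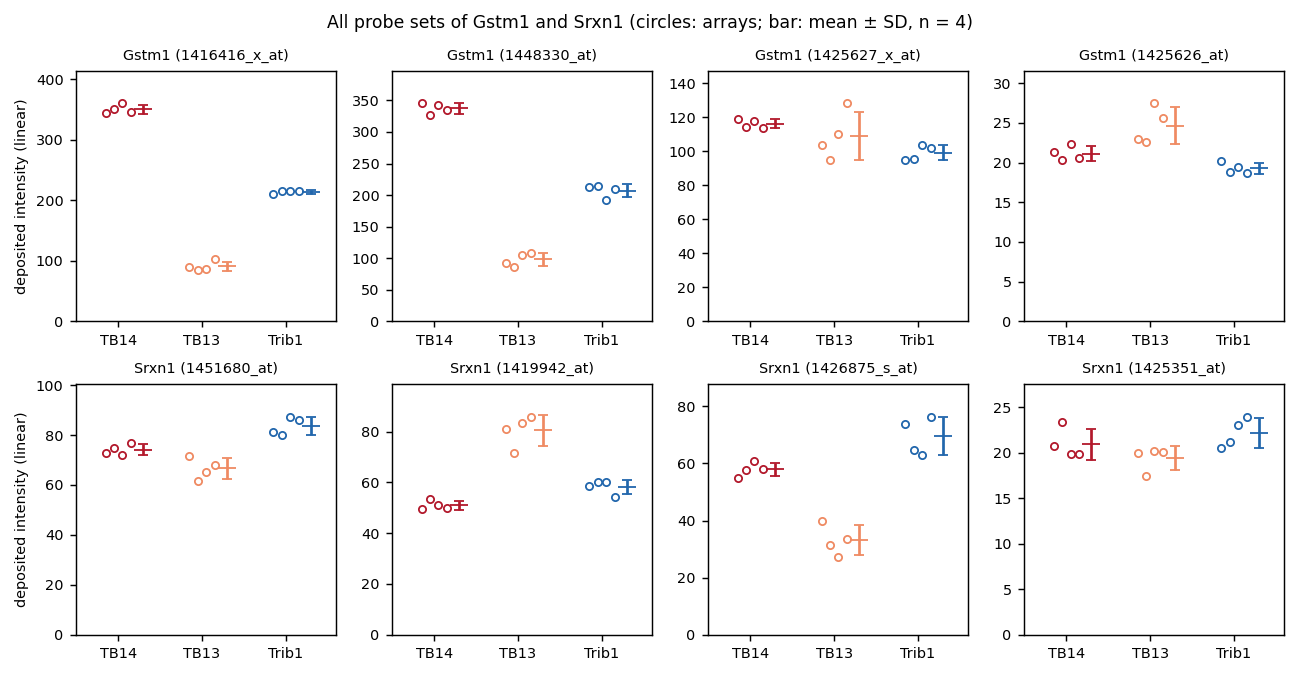
Deposited linear intensity of all 4 probe sets of Gstm1 (top) and of Srxn1 (bottom); lines TB14, TB13 and Trib1 on the x axis, circles for the 4 arrays of each and bars for mean ± SD. The first 2 Gstm1 panels show the same order of lines, whereas 1419942 and 1426875 of Srxn1 show TB13 highest in 1 panel and lowest in the other.

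Gsta4, an alpha class transferase that detoxifies the lipid peroxidation product 4-hydroxynonenal, had the largest rise of the members in TB14, under each of the 4 scalings. It read 58.3, 69.6, 64.0 and 64.0 intensity units on the TB14 arrays, 34.6, 43.5, 39.5 and 50.5 on the TB13 arrays and 21.2, 22.4, 23.4 and 22.3 on the Trib1 arrays. The lines did not overlap, and the Trib1 arrays lay at the array medians, where little signal is measured. Gsta4 was above the array median on 11 of the 12 arrays, all but array 1 of Trib1. The change was 1.13 ± 0.0709 (SE, limma adjusted p = 7.04e-11) in TB14 and 0.64 ± 0.0709 (SE, limma adjusted p = 6.47e-08) in TB13, or 1.00 and 0.57 after quantile scaling, and both lines were higher than Trib1 under all 4 scalings. Over both lines the rise was 0.88 ± 0.0614 (SE, limma adjusted p = 1.42e-10) as deposited and 0.78 after quantile scaling. TB14 was above TB13 by 0.49 as deposited and 0.42 after quantile scaling, although calibration on the controls turned this to -0.73.

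Gstp1, the pi class transferase, read 2162, 2272, 2267 and 2295 intensity units on the TB14 arrays, 1761, 1812, 1811 and 1745 on the TB13 arrays and 1758, 1727, 1767 and 1761 on the Trib1 arrays. TB14 stood above both other lines, and TB13 and Trib1 overlapped. Gstp1 rose by 0.36 ± 0.0202 (SE, limma adjusted p = 1.48e-11) in TB14. In TB13 the value was 0.023 ± 0.0202 (SE, limma adjusted p = 0.276) as deposited, was 0.23 ± 0.0189 (SE, limma adjusted p = 1.05e-08) after quantile scaling and was -0.24 with median scaling, so no stable direction was found there.

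Gsto1, an omega class transferase that reduces dehydroascorbate, went the other way. Its brighter probe set, 1456036_PM_x_at, read 1517, 1507, 1516 and 1489 intensity units on the TB14 arrays, 1610.3, 1615, 1623 and 1498 on the TB13 arrays and 1789, 1789, 1727 and 1765 on the Trib1 arrays. Both lines with Bcl11a lay below the Trib1 arrays as deposited and overlapped each other. The second Gsto1 probe set, 1416531_PM_at, averaged 1395 ± 18.6 in TB14, 1426 ± 23.1 in TB13 and 1715 ± 37.8 in Trib1. In TB14 Gsto1 fell by 0.23 and 0.30 (limma adjusted p = 9.39e-08 and 2.96e-10), and the falls held under the 4 scalings. In TB13 the values were -0.16 and -0.26 as deposited and 0.070 and -0.028 after quantile scaling, with overlapping arrays in the scaled values. The 2 Gsto1 probe sets correlated at 0.923 over the 12 scaled arrays.

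Txnrd1, the cytosolic thioredoxin reductase, read 929, 955, 976 and 942 intensity units on the TB14 arrays, 662, 655, 638 and 604 on the TB13 arrays and 874, 889, 875 and 905 on the Trib1 arrays. TB14 lay slightly above Trib1 and TB13 below both, with no overlap as deposited. Its change in TB14 was 0.10 ± 0.0291 (SE, limma adjusted p = 0.00704). The TB13 change was -0.46 ± 0.0291 (SE, limma adjusted p = 1.1e-11) as deposited and 0.051 ± 0.0236 (SE, limma adjusted p = 0.0555) after quantile scaling, where the TB13 arrays, at 840.1, 843, 818 and 802, overlapped those of both other lines. Of the brightest probe sets of the 10 genes, Txnrd1 had the smallest SD over the 12 scaled arrays, 0.051 on the log2 scale, against 0.495 for Gstm1.

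Prdx1, a peroxiredoxin that thioredoxin reduces, gave more than 1 profile. Its probe set 1416000_PM_a_at read 2449.7, 2434, 2416 and 2364 intensity units on the TB14 arrays, 1853, 1797, 1913 and 1873 on the TB13 arrays and 2016, 2072, 2053 and 2094 on the Trib1 arrays. TB14 was above both other lines and TB13 below Trib1, with no overlap. The second Prdx1 probe set, 1437014_PM_x_at, averaged 679 ± 10.6 in TB14, 553 ± 31.2 in TB13 and 608 ± 17.5 in Trib1. In TB14 Prdx1 rose by 0.23 ± 0.0197 (SE, limma adjusted p = 7.78e-09) and 0.16 ± 0.0359 (SE, limma adjusted p = 0.00111). In TB13 the values were -0.15 and -0.13 as deposited but 0.034 (limma adjusted p = 0.114) and 0.45 (limma adjusted p = 3.82e-09) after quantile scaling. Over the scaled arrays these probe sets correlated at -0.061, so they gave no common Prdx1 profile beyond the TB14 rise.

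Srxn1, sulfiredoxin, was dim and its probe sets disagreed. The first, 1451680_PM_at, read 72.9, 75.0, 71.8 and 77.0 intensity units on the TB14 arrays, 71.7, 61.7, 65.0 and 68.1 on the TB13 arrays and 81.2, 80.2, 87.4 and 86.2 on the Trib1 arrays. Both lines with Bcl11a lay below Trib1 on it as deposited. The second, 1419942_PM_at, read 49.3, 53.4, 51.0 and 50.1 intensity units on the TB14 arrays, 81.0, 71.6, 83.3 and 85.9 on the TB13 arrays and 58.7, 60.2, 60.1 and 54.2 on the Trib1 arrays, with TB13 above both other lines. The third, 1426875_PM_s_at, read 54.9, 57.9, 60.7 and 58.2 intensity units on the TB14 arrays, 40.0, 31.6, 27.3 and 33.7 on the TB13 arrays and 73.9, 64.8, 62.8 and 76.4 on the Trib1 arrays, with TB13 below both. In TB14 the 3 Srxn1 changes were -0.15, -0.16 and -0.22 (limma adjusted p = 0.0236, 0.0259 and 0.0203), and after quantile scaling they were -0.16, -0.15 and -0.21 (limma adjusted p = 0.0561, 0.0966 and 0.0606), so none passed there at about the same size. As deposited, 1451680_PM_at also lost its call without array 3 or 4 of Trib1 or array 1 or 3 of TB14, 1419942_PM_at without array 1, 2 or 3 of Trib1 or array 1, 3 or 4 of TB14, and 1426875_PM_s_at without array 1 or 4 of Trib1 or array 1 of TB14. In TB13 they were -0.28, 0.39 and -0.85 as deposited and 0.10, 0.82 and -0.87 after quantile scaling. For Srxn1, 1419942_PM_at and 1426875_PM_s_at correlated at -0.877 over the scaled arrays, and no direction can be given for the gene in TB13. The last, 1425351_PM_at, averaged 20.9 ± 1.69 in TB14, 19.4 ± 1.32 in TB13 and 22.2 ± 1.62 in Trib1, did not pass the filter and gave -0.052 in TB14 without one.

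Hmox1, haem oxygenase 1, which breaks haem down to biliverdin, iron and carbon monoxide, was low in all lines and read 61.6, 71.3, 72.3 and 64.8 intensity units on the TB14 arrays, 40.6, 40.0, 40.3 and 39.8 on the TB13 arrays and 59.7, 62.6, 63.5 and 58.7 on the Trib1 arrays. The TB14 and Trib1 arrays overlapped, and the TB13 arrays lay below both. Its TB14 change was 0.12 ± 0.0532 (SE, limma adjusted p = 0.074) and did not pass. It passed with median scaling at 0.14 (limma adjusted p = 0.0358), without the variance trend (limma adjusted p = 0.0363) and without array 1 of TB14 at 0.16 (limma adjusted p = 0.0296). In TB13 the change was -0.48 ± 0.0532 (SE, limma adjusted p = 6.03e-08) as deposited and -0.48 ± 0.0566 (SE, limma adjusted p = 9.58e-07) after quantile scaling, but 0.69 under calibration on the controls.

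**Figure D3:**
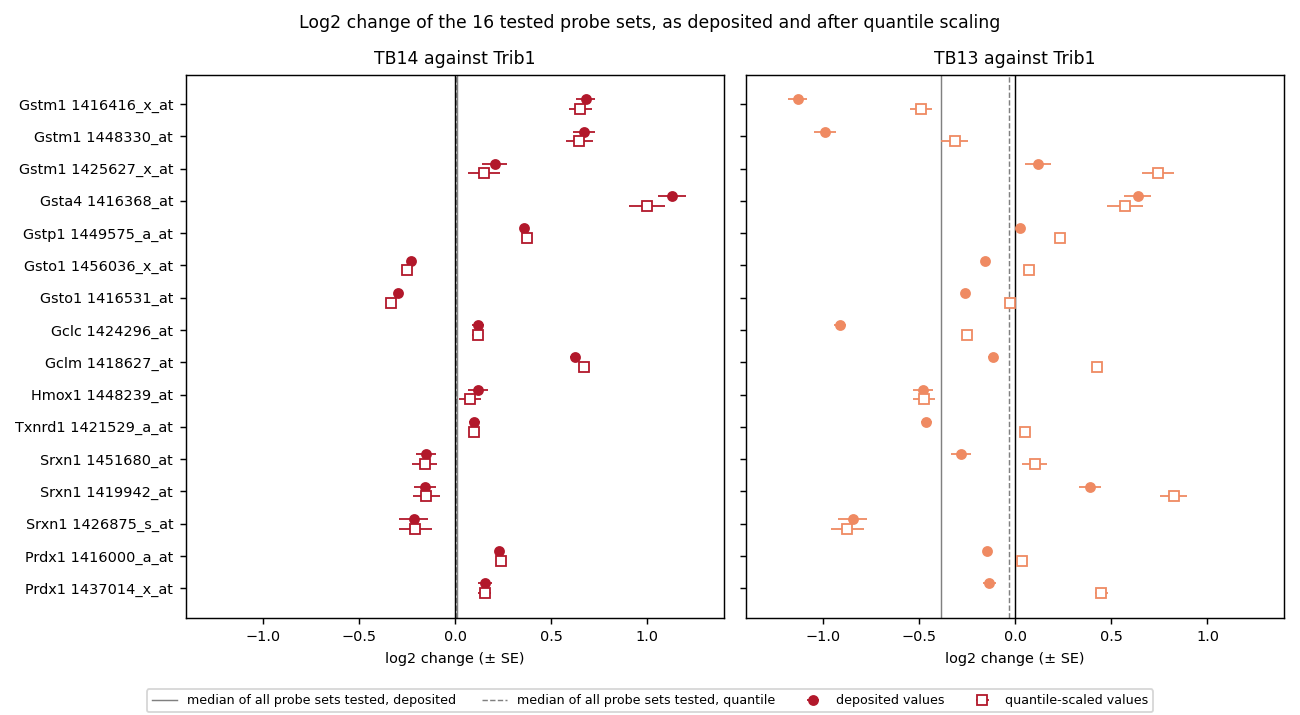
Log2 change of the 16 tested probe sets in TB14 against Trib1 (left) and TB13 against Trib1 (right); filled circles are deposited values, open squares quantile-scaled values, whiskers SE, and grey lines the median of all probe sets tested. The TB14 points hardly moved with the scaling, whereas most TB13 points moved to the right with the median of all probe sets.

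For TB13 against Trib1, 2 of the 16 probe sets passed as higher (Gsta4 and 1 of Srxn1) and 12 as lower as deposited, against 26.0% and 64.4% of all probe sets tested. After quantile scaling 7 were higher and 5 lower (37.0% and 43.1% over all). Median scaling gave 2 and 13 (17.6% and 73.0%), and calibration on the controls gave 12 and 1 (75.3% and 10.5%). At 1.5-fold or more 1 was higher and 4 lower as deposited (6.54% and 38.5% over all), and 2 and 1 after quantile scaling (10.9% and 15.2%). Leaving out array 4 of TB13 took the deposited count of higher calls at 1.5-fold to 0. The direction of most members in TB13 thus followed that of all probe sets from scaling to scaling. Only Gsta4, Srxn1 1419942_PM_at (both higher), Gclc and Gstm1 1416416_PM_x_at (both lower) kept their TB13 direction under the 4 scalings. That Gstm1 probe set was, however, at -0.012 under calibration (limma adjusted p = 0.867), which is no measurable fall. Of the other tested Gstm1 probe sets, 1448330_PM_at turned under calibration (0.12) and 1425627_PM_x_at with median scaling (-0.12). Without scaling, the member median was -0.21, beside -0.39 for all, and after quantile scaling 0.061, beside -0.030.

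The series names the presence of Bcl11a as its comparison, and over both lines against Trib1 6 probe sets passed as higher and 9 as lower, against 25.9% and 55.1% over all. The split was 9 and 5 after quantile scaling (34.4% and 33.7%), 3 and 11 with median scaling (16.0% and 64.0%) and 12 and 1 under calibration (72.1% and 11.4%). Gsta4 alone was higher by 1.5-fold and 0 members were lower, beside 1.12% and 11.8% over all. Gclm, at 0.26 ± 0.0232 (SE, limma adjusted p = 7.05e-09), and Gstp1, at 0.19 ± 0.0175 (SE, limma adjusted p = 8.48e-09), were higher and Gsto1, at -0.19 and -0.28, lower under the 4 scalings in this contrast, but TB14 and TB13 differed on each of them after quantile scaling. Leaving out array 1 of the Trib1 line reduced the 6 higher calls to 3.

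Between the lines with Bcl11a, 12 probe sets passed as higher in TB14 than in TB13 and 2 as lower, against 65.2% and 26.0% over all. Quantile scaling gave 9 and 6 (44.9% and 35.9%), median scaling 15 and 1 (74.1% and 17.2%) and calibration 6 and 9 (13.2% and 71.9%). At 1.5-fold or more 6 were higher and 0 lower as deposited (41.3% and 7.10% over all), and 3 and 2 after quantile scaling (15.9% and 11.4%). The probe sets higher in TB14 than in TB13 under all 4 scalings were the 2 brightest of Gstm1, Gclc, Gclm, Gstp1 and Prdx1 1416000_PM_a_at, and Srxn1 1419942_PM_at was lower under all 4. The comparisons with Trib1 share the Trib1 arrays, so their values stand side by side and no overlap between them is given.

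Other genes of the pathway were read from 8 lists with 1 probe set a gene, and 12 of the 16 genes for glutathione synthesis and recycling were tested. List genes were read on deposited and quantile-scaled values alone, so no TB13 direction of theirs is called stable. Of these, 2 were higher and 7 lower in TB14 than in Trib1 (16.7% and 58.3%, beside 29.6% and 20.0% of all probe sets tested), or 1 and 7 after quantile scaling. TB13 had 1 higher and 8 lower than Trib1 (8.33% and 66.7%, beside 26.0% and 64.4%), or 7 and 3 after quantile scaling, beside 37.0% and 43.1%. The list's median was -0.20 in TB14, and in TB13 -0.27 as deposited and 0.13 after quantile scaling, beside -0.39 and -0.030 for all probe sets tested in TB13. Chac2, an enzyme that degrades glutathione, averaged 137 ± 5.55 in TB14, 40.1 ± 4.92 in TB13 and 179 ± 10.8 in Trib1 (SD, n = 4 each), and its change was -0.36 in TB14 and -1.87 in TB13, or -1.72 after quantile scaling. Slc7a11, the cystine importer that supplies cysteine for synthesis, averaged 36.7 ± 1.88 in TB14, 28.6 ± 5.46 in TB13 and 59.1 ± 3.37 in Trib1, with -0.54 in TB14 and -0.80 in TB13 (-0.87 scaled). Of the 4 TB13 arrays of Slc7a11, 3 were above their array medians, which lay near the TB13 mean, so the size of the TB13 fall is uncertain. Cbs, of the transsulfuration route to cysteine, averaged 19.1 ± 2.21 in TB14, 33.0 ± 5.43 in TB13 and 18.7 ± 1.78 in Trib1. All 4 Trib1 arrays of Cbs were below the array medians. With Trib1 set at those medians, Cbs in TB13 was at 1.53-fold as deposited. That is no lower bound, because the TB13 array medians were higher, at 25.5 to 25.9 against 21.1 to 21.4 in Trib1. The fitted Cbs change in TB13 was 0.54 as deposited and 0.39 after quantile scaling. Gsr, glutathione reductase, named after its values were seen, averaged 775 ± 12.2 in TB14, 324 ± 22.1 in TB13 and 441 ± 5.68 in Trib1, with 0.80 in TB14 (limma adjusted p = 1.7e-12) and -0.43 in TB13, which turned to 0.28 after quantile scaling.

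Among 12 tested of 23 other glutathione transferases, 5 were higher and 1 lower in TB14 than in Trib1 (41.7% and 8.33%, beside 29.6% and 20.0% of all probe sets tested), or 3 and 1 after quantile scaling. TB13 had 8 higher and 3 lower than Trib1 (66.7% and 25%, beside 26.0% and 64.4%), or 9 and 2 after quantile scaling, beside 37.0% and 43.1%. The filter asks for 4 of the 12 arrays, so a gene can enter through the line where it is high. Gstt1 averaged 28.9 in TB13, 17.5 in TB14 and 19.1 in Trib1. Gstm4, Gstm7 and Gstp3 averaged 20.5, 25.6 and 26.3 in Trib1, near its array medians of 21.1 to 21.4. These counts are thus a description and no test of the list. The median was 0.065 in TB14, and in TB13 0.31 as deposited and 0.43 after quantile scaling, beside -0.39 and -0.030 for all probe sets tested in TB13. Mgst1, a membrane-bound transferase, had 381, 419, 436 and 454 intensity units on the TB14 arrays, 26.8, 25.2, 31.0 and 26.5 on the TB13 arrays and 16.4, 14.2, 16.6 and 16.9 on the Trib1 arrays. The TB14 arrays alone were far above the array medians and all 4 Trib1 arrays were below theirs, so the Mgst1 fold in TB14 is a lower bound. Trib1 was set at its array medians, which stand in here for a background level. Mgst1 was then at least 19.8-fold higher in TB14 (limma adjusted p = 6.71e-20 in the fit). Against the same level Mgst1 in TB13 was at 1.28-fold as deposited. That is no lower bound, because the TB13 array medians were higher, at 25.5 to 25.9. On Mgst1, 3 of the 4 TB13 arrays were above their medians. The fitted Mgst1 change in TB13 was 0.48, or 0.31 after quantile scaling. A second Mgst1 probe set stayed between 11.8 and 18.7 on all arrays and was not tested. Gstm4 gave 0.17 in TB14 and 1.00 in TB13 (1.09 scaled) from 24.7 ± 1.04 in TB14, 54.3 ± 8.30 in TB13 and 20.5 ± 1.26 in Trib1, with 2 of the 4 Trib1 arrays above the array medians. Hpgds, the sigma class prostaglandin D synthase, gave -0.30 in TB14 and -0.57 in TB13 (-0.60 scaled). For peroxidases, catalase and superoxide dismutases, 9 of 17 genes were tested, of which 3 were higher and 0 lower in TB14 than in Trib1 (33.3% and 0%, beside 29.6% and 20.0% of all probe sets tested), or 3 and 0 after quantile scaling. TB13 had 2 higher and 5 lower than Trib1 (22.2% and 55.6%, beside 26.0% and 64.4%), or 7 and 1 after quantile scaling, beside 37.0% and 43.1%.

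In the thioredoxin, glutaredoxin and repair list all 20 genes were tested, and 10 were higher and 3 lower in TB14 than in Trib1 (50% and 15%, beside 29.6% and 20.0% of all probe sets tested), or 10 and 2 after quantile scaling. TB13 had 3 higher and 17 lower than Trib1 (15% and 85%, beside 26.0% and 64.4%), or 6 and 8 after quantile scaling, beside 37.0% and 43.1%. Sesn3, a sestrin, averaged 26.5 ± 1.33 in TB14, 24.9 ± 0.934 in TB13 and 60.6 ± 7.23 in Trib1, with changes of -0.90 in TB14 and -0.96 in TB13 (-1.03 scaled). Only 1 of the 4 TB13 arrays of Sesn3 was above its array median, so the size of the TB13 fall is uncertain. Msra, a methionine sulfoxide reductase, gave -0.23 in TB14 (limma adjusted p = 0.00834, and 0.0534 after quantile scaling) and -1.41 in TB13 (-1.05 scaled). Glrx2, a mitochondrial glutaredoxin, and Sesn1 passed in opposite directions on deposited and quantile-scaled values, the only scalings run for list genes. Glrx2 was at 0.26 in TB14 and -1.04 in TB13, or 0.24 and -0.28 after quantile scaling. Sesn1 was at 0.19 in TB14 and -1.03 in TB13, or 0.17 and -0.27.

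Of the regulators around NRF2, 11 of 14 genes were tested, and 2 were higher and 4 lower in TB14 than in Trib1 (18.2% and 36.4%, beside 29.6% and 20.0% of all probe sets tested), or 2 and 4 after quantile scaling. TB13 had 3 higher and 7 lower than Trib1 (27.3% and 63.6%, beside 26.0% and 64.4%), or 7 and 3 after quantile scaling, beside 37.0% and 43.1%. Nfe2l2, which encodes NRF2, averaged 642 ± 11.5 in TB14, 478 ± 11.9 in TB13 and 658 ± 12.1 in Trib1, with -0.035 in TB14 (limma adjusted p = 0.339) and -0.45 in TB13, which turned to 0.16 after quantile scaling. Bach1, the repressor that competes with NRF2, read 274, 282, 284 and 286 on the TB14 arrays, 139, 119.6, 125 and 122 on the TB13 arrays and 459, 424, 442 and 435 on the Trib1 arrays, with no overlap between lines. The Bach1 change was -0.62 in TB14 (limma adjusted p = 5.31e-10) and -1.70 in TB13, or -0.96 after quantile scaling (limma adjusted p = 1.09e-11). The second Bach1 probe set, a dimmer one, gave -0.19 in TB14 and -0.72 in TB13 (-0.81 scaled). Its TB14 arrays, at 42.0 to 51.7, overlapped the Trib1 arrays at 50.5 to 56.8. Its TB13 arrays, at 24.4 to 29.4, lay near their array medians of 25.5 to 25.9, so the size of that fall is uncertain. Mafg, a small MAF partner, gave -0.37 in TB14 and -1.09 in TB13 (-0.33 scaled). Cul3, the scaffold of the ubiquitin ligase for NRF2, gave -0.015 in TB14 (limma adjusted p = 0.718) and -0.75 in TB13 (-0.17 scaled). Keap1 was not analysed here.

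Of other NRF2 targets, 15 of 20 were tested, and 5 were higher and 3 lower in TB14 than in Trib1 (33.3% and 20%, beside 29.6% and 20.0% of all probe sets tested), or 4 and 3 after quantile scaling. TB13 had 3 higher and 12 lower than Trib1 (20% and 80%, beside 26.0% and 64.4%), or 6 and 7 after quantile scaling, beside 37.0% and 43.1%. The list's median in TB14 was 0.013, beside 0.0084 for all probe sets tested. The exporters Abcc4 and Abcc1 gave -0.10 and -0.15 in TB14 and -1.31 and -0.86 in TB13, or -0.88 and -0.13 after quantile scaling. In TB14 Abcc1 passed (limma adjusted p = 0.00692) and Abcc4 did not (limma adjusted p = 0.144). Lpin1, a phosphatidate phosphatase, gave -0.26 in TB14 and -0.86 in TB13 (limma adjusted p = 1.06e-11), or -0.13 after quantile scaling (limma adjusted p = 0.0671).

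NADPH, the reductant on which glutathione reductase and thioredoxin reductase depend, had 13 of 15 genes tested, and 8 were higher and 1 lower in TB14 than in Trib1 (61.5% and 7.69%, beside 29.6% and 20.0% of all probe sets tested), or 9 and 1 after quantile scaling. TB13 had 1 higher and 12 lower than Trib1 (7.69% and 92.3%, beside 26.0% and 64.4%), or 5 and 6 after quantile scaling, beside 37.0% and 43.1%. Nnt, the mitochondrial transhydrogenase, averaged 305 ± 8.94 in TB14, 63.7 ± 11.1 in TB13 and 229 ± 8.09 in Trib1, with 0.39 in TB14 and -1.67 in TB13 (-1.23 scaled). Idh1, the cytosolic isocitrate dehydrogenase, gave 0.43 in TB14 and -0.95 in TB13 (-0.25 scaled). Both passed in opposite directions in the lines under these scalings. Me1, malic enzyme 1, was dim and gave 0.005 in TB14 and 0.36 in TB13 (0.23 scaled).

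Around Hmox1, 12 of 18 genes of haem breakdown and iron handling were tested, and 6 were higher and 2 lower in TB14 than in Trib1 (50% and 16.7%, beside 29.6% and 20.0% of all probe sets tested), or 6 and 2 after quantile scaling. TB13 had 1 higher and 9 lower than Trib1 (8.33% and 75%, beside 26.0% and 64.4%), or 5 and 3 after quantile scaling, beside 37.0% and 43.1%. Tfrc, the transferrin receptor that imports iron, averaged 3028 ± 16.3 in TB14, 1325 ± 51.0 in TB13 and 2031 ± 37.6 in Trib1 and passed in opposite directions, with 0.57 in TB14 and -0.61 in TB13 (-0.37 scaled). Ftl1, the ferritin light chain, gave -0.10 in TB14 and -0.10 in TB13 (-0.038 scaled). Slc40a1, the iron exporter ferroportin, was below the array medians on all 4 Trib1 arrays, and its fitted change was 0.10 in TB14 and 0.57 in TB13 (0.43 scaled). With Trib1 set at those medians Slc40a1 in TB13 was at 1.64-fold as deposited. That is no lower bound, because the TB13 array medians were higher, at 25.5 to 25.9. Erythroid markers, summed on deposited values alone, differed between the lines as well. Of 8 such markers 5 were on the array, and their summed intensity was 1563 to 1597 in TB14, 1651 to 1783 in TB13 and 952 to 1000.4 in Trib1. Most of it was Hba-a1, at means of 1459 in TB14, 1519 in TB13 and 857 in Trib1, whereas Klf1, Alas2 and Epb42 averaged 14.3 to 26.5. Epor averaged 68.0 in TB14, 120 in TB13 and 70.0 in Trib1, so it was not higher in TB14 than in Trib1. The part of these markers in the results was not tested.

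**Figure D4:**
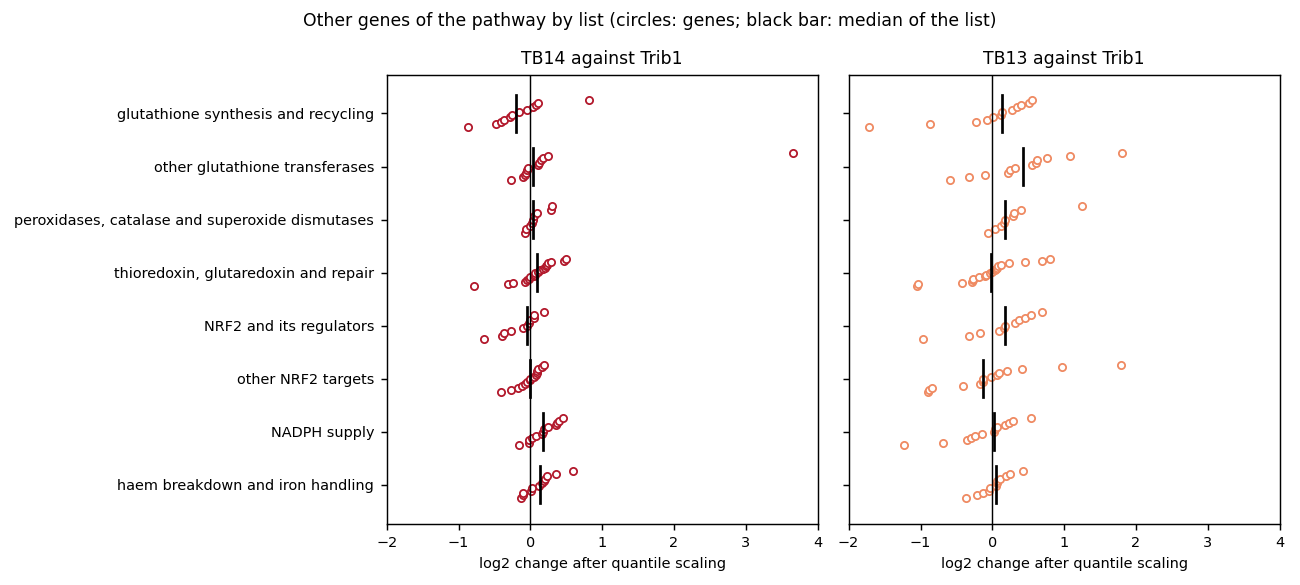
Log2 change after quantile scaling of the other genes of the pathway in TB14 against Trib1 (left) and TB13 against Trib1 (right), by list on the y axis; circles are genes and black bars list medians. Mgst1 stands alone at a fitted 3.65 in TB14, and the glutathione transferase list has its median at 0.43 in TB13.

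Summed markers of further cell types also differed between the lines, on deposited values alone. TB13 array medians were 25.5 to 25.9, against 20.8 to 21.4 on the other arrays. TB13 trimmed means were 81.3 to 83.3, against 115.5 to 117.8. In the TB13 sums below, array scale and cell type therefore cannot be told apart. The 11 myeloid markers summed to 8087 to 8153 in TB14, 4937 to 5112 in TB13 and 6791 to 6941 in Trib1. They did not move together. Mpo (2296 against 226), Lyz2, Kit, Csf3r and Cd33 averaged higher in TB14 than in Trib1. Ptprc, Cebpa, Fcgr3 (841 against 1526), Spi1, Itgam and Csf1r averaged lower. The 6 mast cell markers summed to 6945 to 7020 in TB14, 6560 to 6863 in TB13 and 6627 to 6692 in Trib1, most of it Cpa3. Dimmer ones differed in opposite directions. Ms4a2 averaged 631 in TB14, 228 in TB13 and 74.7 in Trib1. Fcer1a averaged 150, 244 and 482, and Cma1 40.1, 39.8 and 105, in the same order. Tpsb2 and Mcpt4 averaged 10.8 to 29.6. T cell markers summed to 141 to 147 in TB14, 233 to 281 in TB13 and 207 to 217 in Trib1, with 5 of 6 on the array, and B cell markers to 86.4 to 93.9, 123 to 139 and 90.5 to 94.4, with 4 of 5. Megakaryocyte markers, 4 of 4, summed to 857 to 877 in TB14, 705 to 790.0 in TB13 and 886 to 947 in Trib1. Stromal and endothelial markers, 6 of 6, summed to 626 to 669 in TB14, 358 to 408 in TB13 and 825 to 858 in Trib1, with Col1a1, Col1a2, Col3a1 and Cdh5 below the medians on all arrays, and the 3 hepatocyte markers summed to 56.0 to 63.4, 84.8 to 95.5 and 60.8 to 64.3. Array values have no true 0, and the part of these markers in the results was not tested.

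Gstm1 varied most among the members, and 5 probe sets of other genes had the quantile-scaled profile most like that of 1416416_PM_x_at over the 12 arrays, by Pearson correlation. They were Fmr1 at 0.996, Naa35 at 0.996, Hnrnpab at 0.9918, Suz12 at 0.9916 and Cand1 at 0.9912. These correlations run over 3 lines of 4 arrays that share their scaling and are a description without a test. Suz12, for example, averaged 530 in TB14, 193 in TB13 and 409.7 in Trib1 as deposited, the order of lines that Gstm1 had.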

How the data were processed

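The deposited values are linear intensities; the submitters' processing notes name MAS5, with no version, and its background correction and scaling target are not stated in the labels. Biotin-labelled RNA of 3 lines was measured on 12 arrays, grouped by title. Of 45141 probe sets, 104 controls, 551 with several genes and 15588 with none were left out of the tests, and 28898 had 1 gene in the platform annotation. No symbol changed through RefSeq gene identifiers. The members, lists and tests were chosen with earlier results of these data known.

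Probe sets brighter than the median of the array on 4 or more of the 12 arrays (17475) were tested in R 4.3.3 with limma 3.58.1 on log2(intensity + 12.7), 12.7 being the 25th percentile of all values, with all arrays in 1 model, trended variances and Benjamini-Hochberg adjustment over all of them; the 2 members below the filter came from a fit without it. Thresholds were an adjusted p of 0.05 and, as a second count, 1.5-fold, log2 0.585. Calibration fitted a quadratic curve per array to the mean of the 18 hybridization controls. Replicate numbers did not pair the arrays. After each line's mean was subtracted from each tested probe set, same-numbered arrays of different lines correlated at -0.095 to 0.133. Without that subtraction, arrays within a line correlated at 0.9953 or above on log2 values. The number of arrays limits the precision.

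Besides members, the genes named were, from each list, up to 3 called over both lines with the same sign in TB14 and TB13 under both scalings and up to 2 called in opposite directions, plus Mgst1, Nfe2l2, Keap1 and Bach1, and 5 most like the most variable member. Gsr was named outside this rule. Alternatives were scaling, filter, pseudocount, variance trend, replicate block, leaving out each array and leaving out TB13. The code was tested on simulated data. Figures used matplotlib 3.10.9.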

Additional observations from a re-analysis of the deposited data

Results flagged for a closer look

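For 11 of the member probe sets the effects of TB14 and TB13 against Trib1 differed by the limma test of their difference with the same direction on deposited and on quantile-scaled values. TB14 minus TB13 was 1.81 and 1.66 on the brightest Gstm1 probe sets, 1.03 for Gclc, 0.74 for Gclm, 0.60 for Hmox1, 0.63 for Srxn1 1426875_PM_s_at, 0.49 for Gsta4, 0.38 for Prdx1 1416000_PM_a_at, 0.33 for Gstp1, -0.073 for Gsto1 1456036_PM_x_at and -0.55 for Srxn1 1419942_PM_at. The median of all probe sets tested was 0.43 in the same comparison as deposited and 0.050 after quantile scaling. Over all, 65.2% passed as higher and 26.0% as lower as deposited, and 44.9% and 35.9% after quantile scaling, so such flags were common. Under calibration on the controls Gsta4 (-0.73), Hmox1 (-0.63) and Srxn1 1426875_PM_s_at (-0.59) turned. Gsto1 1456036_PM_x_at turned with median scaling (0.22).

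In 2 of 54 groups of 4 arrays, 1 array lay far from the other 3, beyond Dixon's critical value for groups of that size. Array 4 of TB13 was low for Gsto1 1456036_PM_x_at, at 1498 beside 1610.3 to 1623, a ratio of 0.898. Array 2 of TB13 was low for Srxn1 1425351_PM_at, at 17.5, a ratio of 0.916. Chance flags about 1 in 20 such groups.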

How the results depend on the processing

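Each alternative named above was run. In TB14 against Trib1 no change turned, and the 10 higher and 5 lower calls were 9 and 2 after quantile scaling; leaving out 1 array gave 10 to 11 higher and 2 to 5 lower, with 2 or 3 lower without Trib1 array 1, 3 or 4 or TB14 array 1 or 3.

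Quantile scaling turned, in TB13 against Trib1, Gclm (0.43), Gsto1 1456036_PM_x_at (0.070), Srxn1 1451680_PM_at (0.10), Prdx1 (0.034 and 0.45) and Txnrd1 (0.051); over both lines Gstm1 (0.080 and 0.17) and Txnrd1 (0.076); and in TB14 against TB13 Gstm1 1425627_PM_x_at (-0.59), Srxn1 1451680_PM_at (-0.26) and Prdx1 1437014_PM_x_at (-0.29). It gave 7 higher and 5 lower calls in TB13 (2 and 1 at 1.5-fold), 5 lower over both lines, and 6 lower in TB14 against TB13 (3 higher and 2 lower at 1.5-fold). Median scaling turned Gstp1 (-0.24) and Gstm1 1425627_PM_x_at (-0.12) in TB13, Prdx1 over both lines (-0.079 and -0.11) and Gsto1 in TB14 against TB13 (0.22 and 0.26), and gave 3 higher calls over both lines (1 lower at 1.5-fold), 0 higher at 1.5-fold in TB13, and 1 lower in TB14 against TB13 with 10 higher at 1.5-fold.

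Calibration on the controls turned, in TB13, Gclm (0.55), Gstm1 1448330_PM_at (0.12), Gsto1 (0.15 and 0.076), Hmox1 (0.69), Prdx1 (0.094 and 0.58), Srxn1 (0.88 and 0.33) and Txnrd1 (0.17); over both lines Gclc (0.014), Gstm1 (0.36 and 0.42), Hmox1 (0.37), Srxn1 (0.34 and 0.032) and Txnrd1 (0.16); and in TB14 against TB13 Gsta4 (-0.73), Gstm1 1425627_PM_x_at (-1.05), Hmox1 (-0.63), Prdx1 1437014_PM_x_at (-0.38), Srxn1 (-1.07 and -0.59) and Txnrd1 (-0.027). It gave 12 higher and 1 lower call in TB13 (5 and 0 at 1.5-fold), 12 and 1 over both lines (4 higher at 1.5-fold), and 6 and 9 in TB14 against TB13 (2 and 6 at 1.5-fold). The cause was not tested.

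Without the TB13 arrays, the comparison over both lines is TB14 alone, with 11 higher and 5 lower calls (4 higher at 1.5-fold), and Gclc (0.12), Gstm1 (0.68 and 0.67), Hmox1 (0.12), Txnrd1 (0.10) and Srxn1 1419942_PM_at (-0.16) turned. The stricter filter leaves out Gsta4, with 1 higher call in TB13 and 0 at 1.5-fold there and over both lines. A pseudocount of 1 gave 1 lower call at 1.5-fold over both lines and in TB14 against TB13, and 1 at the median of all values gave 0 higher at 1.5-fold in TB13. Leaving out 1 array gave 3 to 6 higher calls over both lines (3 without Trib1 array 1), 0 to 1 higher at 1.5-fold in TB13 (0 without TB13 array 4) and 0 to 1 lower at 1.5-fold in TB14 against TB13 (1 without TB13 array 2); Prdx1 1437014_PM_x_at over both lines ranged over -0.003 to 0.030 and turned without TB13 array 2 (-0.002) or Trib1 array 3. With the replicate block, 1 call was lost, that of Srxn1 1419942_PM_at over both lines at 0.12 (limma adjusted p = 0.0528). After subtraction of the line means, 1 of 12 same-numbered pairs correlated above 0.1 and 2 of 12 arrays correlated best with their own number. Dim probe sets, such as Gsta4 in Trib1 and the last of Gstm1 and Srxn1, are limited by signal near the array medians.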
